A study of Mus musculus with 2 samples.

Results

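The Sfmbt2 intronic miRNA array is a run of hairpin genes inside 1 intron of Sfmbt2, a mouse Polycomb-group gene. Its members were all genes of type miRNA in the GENCODE M21 annotation that lie wholly within the bounds of Sfmbt2 and on its strand, a rule that uses position and no measured value. It took 119 of the 2202 counted miRNA genes. Small RNA, below 30 bases in length, had been sequenced from the gastrocnemius, the large calf muscle, of female mice of strain B6CASTF1/J, taken at postnatal day 4. These animals are first-generation hybrids of C57BL/6J and CAST/EiJ parents with no further treatment or allele named in the labels. There was 1 group of 2 libraries, from females that the labels number separately while listing the same donor record for both. With 1 group, the data give levels and the spread between these libraries, and no condition could be compared. The deposited tables do not separate the parental alleles.

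MicroRNAs are cut from hairpin transcripts first by Drosha in the nucleus and then by Dicer in the cytoplasm, and the mature strand guides Argonaute to matching messenger RNAs, chiefly through its seed. Sfmbt2 is an imprinted gene that is expressed from the paternal chromosome in early embryos and extraembryonic tissue. The array in its intron is a feature of rodents and is known for its role in the placenta, where its miRNAs are abundant. The names Mir297, Mir466, Mir467 and Mir669 mark related hairpins rich in alternating U and G or C and A bases, and most of them occur in many copies.

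Sfmbt2 (ENSMUSG00000061186.15) occupies chromosome 2, plus strand, from 10370510 to 10595253 in mm10. All 119 members lay in 1 intron, the 10th or 11th of 23-exon coding transcripts, which is 62472 bp long and runs from 10461473 to 10523944. None overlapped an annotated exon of another class of gene, and no miRNA gene lay in these bounds on the opposite strand. The array itself spanned 52.99 kb, from 10465287 to 10518279, and began 94.78 kb downstream of the annotated start of Sfmbt2. By symbol, 29 members belonged to Mir669, 23 to Mir466, 14 to Mir467 and 5 to Mir297, and 48 carried provisional Gm names.

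The repeats in these hairpins bear on how their reads can be counted, so sequences are shown first. None of the 119 members matched the RefSeq table of miRNA sequences used here by symbol. It did hold mature sequences for 8 of the 10 genes that carry the same family names but lie elsewhere in the genome. The 4 relatives below are of the Mir467 and Mir669 families, which held nearly all counts of the array. They are shown because each differs by only 1 base from a stretch inside at least 1 member hairpin. The sequences are from RefSeq for GRCm38.p6, written 5′ to 3′, with the seed (bases 2 to 8) in capitals.
mmu-miR-467f: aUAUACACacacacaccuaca
mmu-miR-467g: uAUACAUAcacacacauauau
mmu-miR-467h: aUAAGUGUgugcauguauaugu
mmu-miR-669n: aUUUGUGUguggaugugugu

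The best ungapped match of miR-467f, 20 of its 21 bases, occurred in 12 members, namely all 10 Mir467a copies, Gm25022 and Mir467d. That of miR-467g, also 20 of 21 bases, occurred in Mir669l and Mir467e. For miR-467h, 21 of 22 bases matched in Mir467c and Mir467e, and for miR-669n, 19 of 20 bases matched in Mir669c. The seed of miR-467g occurred in 78 of the 119 member hairpins, whereas that of miR-467h occurred in 1. Such a match describes letters only and shows no processing site.

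Reads that matched several places were placed in a separate line of the deposited tables and in no gene. Of the 119 members, 116 (97.5%) had a near-identical copy, defined as a stretch of at least 20 bases shared in the same sense with another counted gene. The same held for 968 of the other 2083 counted genes (46.5%). The term refers to the shared stretch and not to the whole hairpin. Mir669e, for example, met it with 24 of its 119 bases. The median longest shared stretch was 81 bases in the array against 17 bases in the other genes, with a median hairpin length of 98 and 89 bases. The 3 members without such a stretch were Gm22239, Gm23542 and Mir466g, and each had no count in either library.

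Copying was mostly internal to the array. For 114 members, every gene that shared their longest stretch was itself a member, and 32 members had at least 1 counted gene outside the array among those sharing 20 bases or more. The 119 genes comprised only 88 distinct hairpin sequences. A total of 47 members were identical over the whole hairpin to at least 1 other member, in 16 sets of which the largest held 9 genes, and 51 were contained whole in another hairpin. The Mir467a genes inside the central block recurred at a median spacing of 2462 bp and the Mir669a genes at 2455 bp, side by side on 1 strand. Median GC content was 37.3% in the array against 51.7% in the other counted genes, and UG, GU, CA or AC steps made up 50% of the neighbouring bases in the median member against 26.6%.

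Library 1 held 5569392 own-strand gene counts and library 2 held 4336759. Levels are given as CPM, the counts scaled to a library total of 1000000, and are not divided by length because a small RNA read covers a whole mature molecule. The deposited table gives 1 value per hairpin, so its 2 arms cannot be separated. The floor of 3 counts that a count of 0 allows equals 0.539 CPM in library 1 and 0.692 CPM in library 2. It bounds only reads that could be placed in the gene, so for a hairpin with copies it sets no limit on the level. The floor and all intervals below cover counting error only, since the reads carry no molecular identifiers. Of 9 listed skeletal muscle markers 8 were detected, and the summed level of the 9 was 130998 CPM in library 1 and 120702 CPM in library 2. That sum was nearly all Mir206, at 129336 and 119323 CPM. The next was Mir499 at 1292 and 1047 CPM, and the lowest detected was Mir1a-1 at 2.33 and 2.08 CPM. Mir1a-1 and Mir1a-2 each share 28 bases with another counted gene, and Mir133a-1 and Mir133a-2 share 31. The longest shared stretch was 13 bases for Mir206 and 12 for Mir499. Reads that matched several places are missing, so low counts of the copied genes do not show that their miRNAs were scarce. Markers of other cell types differed in sum between library 1 and library 2, from 169 to 824 CPM for the liver gene Mir122, from 33.6 to 181 CPM for 7 neural genes, and from 492 to 278 CPM for 2 leukocyte genes. Of the neural genes, Mir9-2, Mir124a-2 and Mir124a-3 were at 0 in both libraries, and the sum was nearly all Mir137, the 1 detected, at 33.6 and 178 CPM. Mir124a-2 and Mir124a-3 each share 32 bases with another counted gene, against 11 for Mir137, so a count of 0 does not bound their levels. The 1 endothelial gene went from 29519 to 21931 CPM, 2 smooth muscle genes from 25509 to 29100 CPM and 2 erythroid genes from 96.8 to 119 CPM. Members of the last pairs went opposite ways, since Mir145a was at 545 and 508 CPM and Mir144 at 25.7 and 24.4 CPM. In whole tissue, fewer cells that make an miRNA and less of it per cell cannot be told apart.

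The array was counted in this muscle, with a small share of the gene counts and from a few of its genes. Reads that matched several places are missing from these counts. The counts therefore set no upper limit on the array's level or on the number of its genes in use. The members together held 5712 counts in library 1 and 4642 in library 2. That was 0.103% of gene counts in library 1 (95% exact binomial interval 0.0999 to 0.105) and 0.107% in library 2 (0.104 to 0.110), or 0.105% ± 0.00317 (SD, n = 2). Detection at 2 CPM or more in both libraries was met by 7 of 119 members (5.88%), against 335 of all 2202 counted genes (15.2%). The 7 genes held 99.5% of the array's counts in library 1 and 99.7% in library 2. Another 8 members had between 1 and 12 counts in a library, and 104 had no count in either.

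Mir467e and Mir467d, the 90th and 94th members in order along the array, held most of its counts. Mir467e (ENSMUSG00000076948.2, chromosome 2, 10505721 to 10505807) had 2180 counts in library 1 and 1852 in library 2, equal to 391 and 427 CPM. Mir467d (10507630 to 10507714) had 2040 and 1682 counts, equal to 366 and 388 CPM. In both libraries Mir467e was the higher of the pair, by a ratio of 1.07 (95% exact interval 1.01 to 1.14) in library 1 and 1.10 (1.03 to 1.18) in library 2. Of the 22-base windows of the hairpin, 59.1% in Mir467e and 39.1% in Mir467d occur once among the counted hairpins on both strands, and the part of this difference in the order of the pair was not tested. The pair made up 75.0% ± 1.59 (SD, n = 2) of the array's counts. By mean CPM they ranked 124 and 131 among the 2202 counted genes.

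Mir467c, the third family member with counts and the only one of them upstream of the central copies, was far lower. It lies from 10473931 to 10474027 and had 311 and 214 counts, equal to 55.8 and 49.3 CPM. The 3 hairpins are closely related, since Mir467c and Mir467e share a stretch of 48 bases and each shares 34 bases with Mir467d. Of the remaining 11 Mir467 members, Mir467a-1 had 1 count in library 1 and the other 10 genes, among them Mir467b and the other Mir467a copies, had none. The family as a whole held 80.0% ± 0.989 (SD, n = 2) of the array's counts.

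Mir669 hairpins supplied almost all of the rest, 19.7% ± 0.873 (SD, n = 2), from 4 detected genes. Mir669o (10514300 to 10514395) led with 459 and 379 counts, or 82.4 CPM in library 1 and 87.4 CPM in library 2. Mir669c (10509296 to 10509404) had 324 and 232 counts, or 58.2 and 53.5 CPM, and Mir669l (10468971 to 10469068) had 304 and 238 counts, or 54.6 and 54.9 CPM. Mir669e (10467495 to 10467613) was the lowest of the detected members with 65 and 33 counts, or 11.7 and 7.61 CPM. Of the other Mir669 genes, Mir669h had 9 and 5 counts, Mir669f had 1 and 0, and 23 of the 29, including all 12 Mir669a copies, had none.

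Ordered by mean, the levels fell from Mir467e at 409 ± 25.2 CPM (SD, n = 2) and Mir467d at 377 ± 15.2 to Mir669o at 84.9 ± 3.52, then Mir669c at 55.8 ± 3.31, Mir669l at 54.7 ± 0.209 and Mir467c at 52.6 ± 4.59, and last Mir669e at 9.64 ± 2.87. The values of Mir669c, Mir669l and Mir467c overlapped between the libraries, so no order among these 3 can be read. Mir467e, Mir467d, Mir669o and Mir669e did not overlap with their neighbours in that order.

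**Figure D1:**
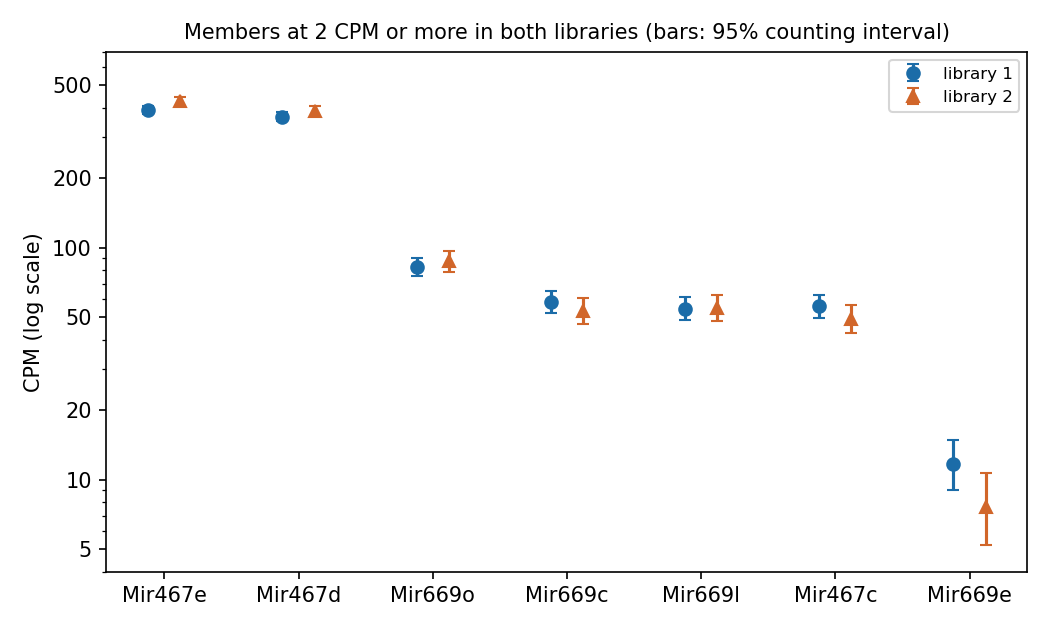
CPM on a log axis for the 7 members at 2 CPM or more in both libraries, with library 1 as circles and library 2 as triangles. Bars are 95% counting intervals. Mir467e and Mir467d lie between 366 and 427 CPM, and Mir669e lies near 10 CPM.

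The 2 remaining named families and the Gm genes had few or no counts. Among 23 Mir466 genes, Mir466n had 12 counts in library 1 and 5 in library 2, which is 2.15 and 1.15 CPM and short of detection in library 2. Mir466h had 1 and 2 counts, and the other 21 had none. Mir297a-2 had 2 counts in library 1 and none in library 2, and the other 4 Mir297 genes had none. Of the 48 Gm genes, Gm22072 with 2 counts and Gm25263 with 1, both in library 1, were the only ones with a read. Mir669f, Mir467a-1, Mir669h and the members at 0 that are named in the text were named after seeing their values. Reads that match more than 1 hairpin are missing from these values, so a count of 0 does not show that a gene was silent.

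Counts lay at the edges of the array and the middle was empty. Between Mir467c and Mir467e stood 72 consecutive members over 30.6 kb, and together they had 1 count in library 1 and 0 in library 2. The 17 members up to and including Mir467c held 685 and 485 counts, and the 30 members from Mir467e onward held 5026 and 4157. These bounds were drawn after the values were seen. The block differed from its flanks in sequence too, since 50 of its 72 hairpins were contained whole in another hairpin, against 0 of 17 upstream and 1 of 30 downstream.

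How far a hairpin can be told from the others was described by the share of its windows of 22 bases, about the length of a mature miRNA, that occur once in all counted hairpins on both strands. In 54 members no window occurred once, and 52 of them were in the central block. These 54 had 1 count in all. In 37 members up to 50% of the windows occurred once, and 1 of these was detected, Mir467d at 39.1%. In 28 members over 50% did, and 6 were detected, from Mir669l at 53.2% to Mir669e at 96.9%. The other side of the same count is that 16 members with more than 50% of windows found once had no count, among them Mir466g and Gm22239 at 100%, Mir669b at 89.5% and Mir466l at 89.0%. Copies in the genome outside the counted genes, and reads placed with mismatches, were not searched, and their part in these zeros was not tested.

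**Figure D2:**
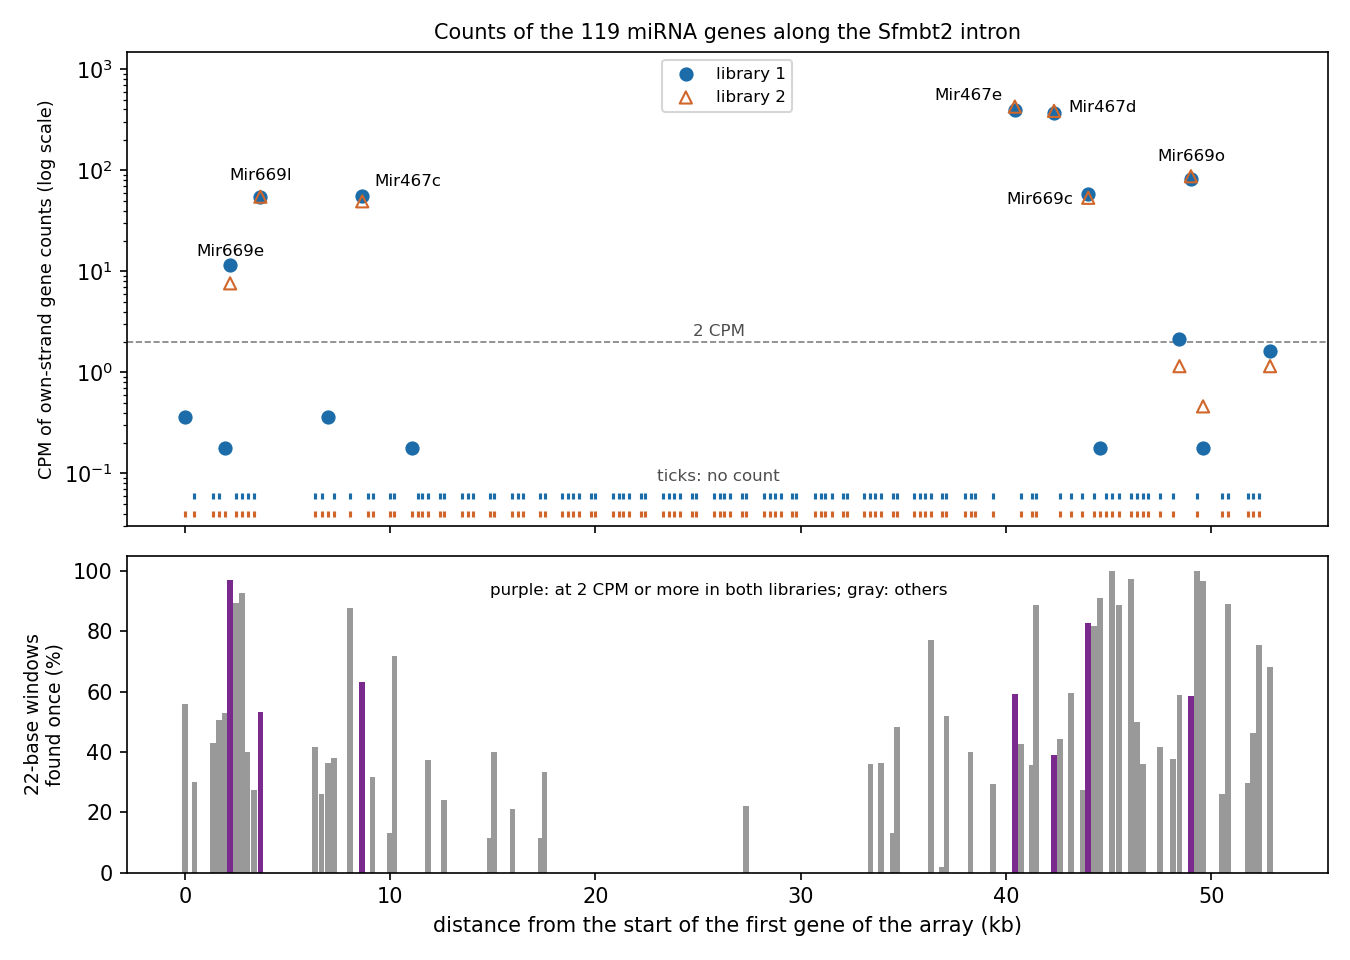
Upper panel: CPM on a log axis against distance in kb from the start of the first gene, for each of the 119 members in library 1 (circles) and library 2 (triangles), with ticks for genes at 0 counts. Lower panel: percent of 22-base windows found once in each hairpin, purple for the 7 detected members, which all lie outside the 72-gene block in the middle.

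In Mir467e the windows found once were spread along the hairpin, with 20 in the 5′ part and 19 in the 3′ part when divided at the middle, and Mir669l had 20 and 21. Mir467d was uneven, with 19 of its 25 in the 5′ part and 6 in the 3′ part. Its longest stretch shared with other members, 60 of 85 bases, was found in 10 of them, among them Gm25022. Windows found once made up 39.1% of its hairpin, and where in the hairpin its counted reads lie was not tested.

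Among the 1084 counted genes with a near-identical copy at 20 bases or more, 7 of 116 members (6.03%) and 74 of 968 other genes (7.64%) were detected. With longer stretches the shares stood the other way round. Of the 847 counted genes sharing 30 bases or more with another, 108 were members, and 6 of these 108 (5.56%) were detected. Among the other 739 genes, 5 (0.677%) were detected, namely Mir3070a, Mir376b, Mir376c, Mir133a-1 and n-TSaga9. At 40 bases or more, 4 of 102 members and 1 of 606 other genes were detected. The limits of 30 and 40 bases were chosen after the values were seen, a common minimum does not make the genes equal in copying, genes that are copies of each other are not independent, and no test was run on these shares.

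**Figure D3:**
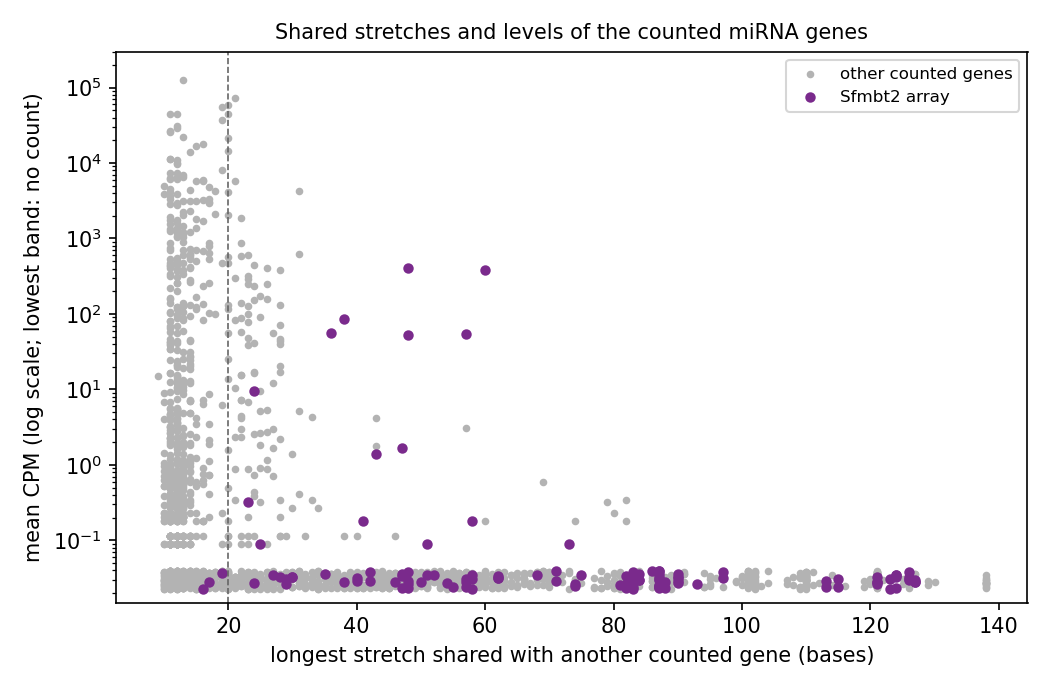
Mean CPM of the 2 libraries on a log axis against the longest stretch, in bases, that each of the 2202 counted genes shares with another. Members are purple and other genes gray, the lowest band holds genes with no count (spread vertically for visibility), and the dashed line marks 20 bases. To the right of the line, 6 members stand above 50 CPM at stretches of 36 to 60 bases.

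Relatives outside the intron had no counted reads. The 10 counted genes named Mir297, Mir466, Mir467 or Mir669 that lie on other chromosomes, such as Mir467f on chromosome 11, Mir467h on chromosome 9 and Mir669n on chromosome 3, had 0 counts in both libraries. A near-identical copy was found for 9 of them, and the exception was Mir669n, whose longest shared stretch was 18 bases. The nearest counterpart in kind is the maternally expressed Mir379-Mir410 array of the imprinted Dlk1-Dio3 domain on chromosome 12. There 36 of 38 genes were detected, 6 of the 38 share 20 bases or more, and the array held 22.3% ± 0.682 (SD, n = 2) of the gene counts against 0.105% for the array in Sfmbt2. The median level of its detected genes was 1041 CPM, against 55.8 CPM for the 7 detected genes in Sfmbt2 and 123 CPM for all 335. Because multimapping reads belong to no gene, these sums cannot be compared as output of the loci.

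With library totals scaled by TMM, the summed counts of the array differed between the libraries by less than counting error. The log2 ratio of library 2 over library 1 was 0.04 (95% counting interval -0.02 to 0.10). Without that scaling the summed level was 1026 CPM in library 1 and 1070 CPM in library 2. No interval was computed for the ratio of these levels, so the result holds for TMM scaling only. Single genes were compared by a two-sided exact binomial test on counts, with library totals scaled by TMM and Benjamini-Hochberg adjustment over the 335 detected genes. This test compares 2 libraries and no conditions, and it called 55.5% of all detected genes. Among the 7 members it called 1, Mir467e, whose log2 ratio of library 2 over library 1 was 0.10 (95% counting interval 0.01 to 0.19) with an adjusted p of 0.0450 by the exact binomial test. Under the other scalings, filters and strand settings tried, that adjusted p ranged from 0.0122 to 0.606. Of all detected genes, 28.7% were called higher in library 2 and 26.9% higher in library 1.

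Mir669e had the widest difference among the members. Its log2 ratio was -0.64 (-1.29 to -0.01), with an adjusted p of 0.0703 by the exact binomial test, which fell to 0.0445 when the scaling factors were taken from all counted genes. The ratios of Mir467c at -0.20 (-0.46 to 0.06), Mir669c at -0.14 (-0.39 to 0.10), Mir669l at -0.01 (-0.27 to 0.24), Mir467d at 0.06 (-0.03 to 0.15) and Mir669o at 0.06 (-0.14 to 0.26) were not called. The median log2 ratio was -0.01 over the 7 members and 0.03 over all 335 genes, and the median size without sign was 0.10 and 0.21. The cell type markers that differed between the libraries are given above, and their part in these ratios was not tested.

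**Figure D4:**
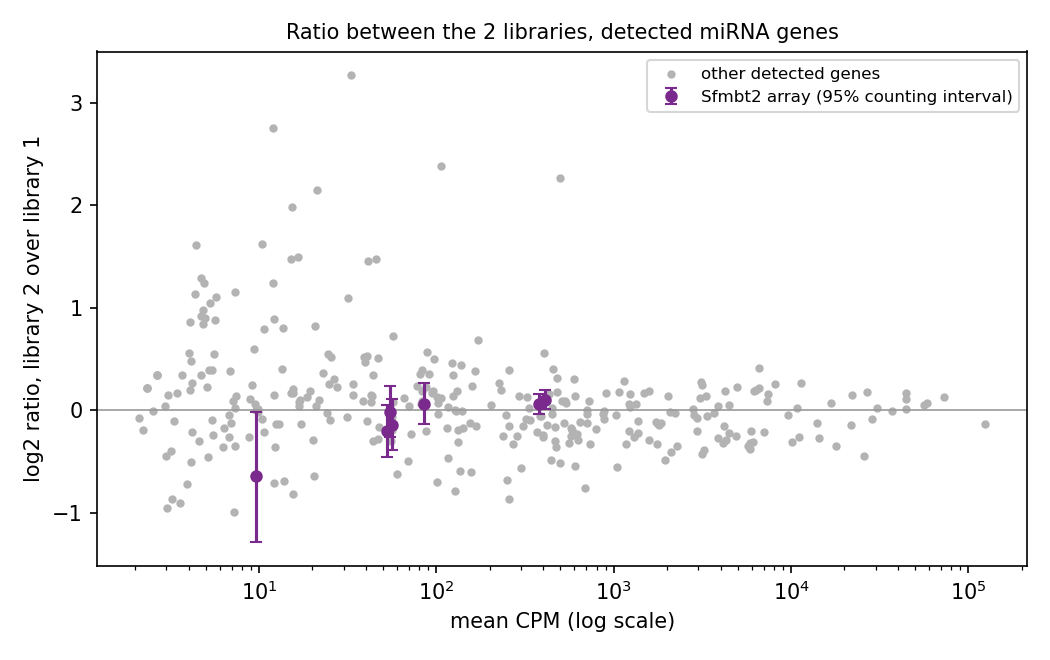
Log2 ratio of library 2 over library 1 against mean CPM on a log axis for the 335 detected genes. The 7 members are purple with 95% counting intervals, and other genes are gray. Of the members, 6 lie between -0.20 and 0.10, and Mir669e lies at -0.64.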

How the data were processed

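Small RNA from 2 gastrocnemius libraries was analysed. The authors deposited 1 table of raw counts per library, made on mm10 with GENCODE M21 per the labels and the text that accompanies the tables. The aligner, the counter and their settings were not given in the sources used here. Own-strand counts were used, and the 4 lines that name no gene stayed out of totals. Those lines held 36.9% (multimapping), 8.03% (unmapped), 1.70% (no feature) and 0% (ambiguous) of reads in library 1, and 37.6%, 9.26%, 2.09% and 0% in library 2. All 2202 identifiers matched GENCODE M21, whose transcript sequences gave the hairpins. TMM factors came from the detected genes in edgeR 4.0.16 under R 4.3.3. Size factors from DESeq2 1.42.0 were an alternative. Python 3.11.15, scipy 1.17.1 and pandas 2.3.3 did the rest, with a test threshold of 0.05. On counts simulated for 335 genes with counting error only, the test called 93.0% of genes changed 2-fold, 82.0% changed 1.5-fold and 0.741% unchanged. It called 55.5% of the detected genes in the 2 libraries, so the simulated shares hold for that setting only. Separate animals or technical handling cannot be told apart in 1 group of 2 libraries. The p-values set the difference between the 2 counts of a gene against counting error only. They hold no estimate of the spread between libraries. Members and lists were chosen with earlier results of these data known. Genes named were all detected or called members and the 3 highest of each name family that had counts. Others are marked where they appear. The 22-base windows replaced a planned search with mature sequences and were chosen after the data were seen.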

Additional observations from a re-analysis of the deposited data

Results flagged for a closer look

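Outside the counts used for the levels, 36.9% of the reads of library 1 and 37.6% of those of library 2 stood in the multimapping line. How much of it came from the Sfmbt2 array was not tested. The members had 0 counts on the opposite strand in both libraries.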

How the results depend on the processing

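The array's share of gene counts was 0.119% with strand ignored and 0.0547% of all reads in the tables, against 0.105%, because the denominators changed while the members' counts did not. Each library alone gave 0.103% to 0.107%. With a floor of 1 count in either library 15 members were detected, against 7, and each library alone gave 7 to 8. Shared stretches of 18, 24 and 40 bases left 117, 115 and 102 members with a copy, and windows of 20 and 24 bases left 54 members with none found once. The 40-base stretch and all windows were chosen after the data were seen. The number of members called between the libraries was 1 with library totals and 0 with DESeq2 size factors, with no filter on low counts and with strand ignored, where the adjusted p of Mir467e was 0.183, 0.0909 and 0.150 by the exact binomial test. With TMM over all counted genes, added after the data were seen, 1 was called, Mir669e. No called ratio changed sign. The planned count of members with a mature sequence found once, with its alternative, was not run. No paired analysis was possible because the series has 1 group. Of the 104 members at 0, 53 have no window found once, and the level of these is not bounded by a count of 0. Another 35 have up to 50% of windows found once, and 16 have more. The parts of depth and of copies in these zeros were not tested.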
